A study of Drosophila melanogaster with 4 samples.

Results

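Regions bound by RPD3 in the interior of the X chromosome were described from chromatin immunoprecipitation and sequencing (ChIP-seq) of whole Drosophila melanogaster embryos. A region belonged to the set if it was listed as enriched and if its midpoint lay between 1 and 20.9 Mb on the X of FlyBase release 5, which leaves out the telomere-side and centromere-side ends. The rule used position only. It gave 1105 of the 7041 regions in the list of ChIP replicate 1 (15.7%), 1251 of the 7654 regions of ChIP replicate 2 (16.3%) and 2794 of the 19364 enriched regions of another list, deposited for the series and named the combined list here (14.4%). The 2 ChIP libraries were made with the antibody Q3451 against RPD3, and each had 1 of the 2 input libraries as its control. All 4 libraries came from wild-type Oregon-R embryos of 14 to 16 h fixed in 1.8% formaldehyde. Whole embryos hold many tissues, so a region does not tell in which cells RPD3 was bound. The labels give no sex, so the number of X copies in these embryos is unknown. Its part in differences between the X and the arms was not tested. The same rows on the interiors of 2L, 3L and 3R served as background.

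RPD3 is a class I histone deacetylase, related to HDAC1 and HDAC2 of mammals, enzymes that take acetyl groups off histone tails. It has no DNA-binding domain of its own and is brought to chromatin within complexes built on Sin3A, on Mi-2 or on CoREST, many of which repress transcription. The X is the chromosome on which male flies raise transcription through the MSL complex, which acetylates histone H4, and so carries an acetylation pattern of its own in males. At this late stage of embryogenesis, organs are differentiating.

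The lists give the borders of each region and a score that the authors deposited, read here as a log2 ratio of ChIP over input. They hold no read numbers, so depth is unknown and counting error cannot be given. Spread is given between the 2 replicates, and where nothing says that they came from separate embryo collections it may be technical only. X and arm values of a replicate come from the same library and were compared as pairs. With 2 pairs, an exact paired permutation test cannot give a two-sided p below 0.5, so no difference between chromosomes could pass a threshold of 0.05. At the lower limit of the rule the last region outside had scores of 0.88 in replicate 1 and 0.94 in replicate 2, and the first inside had 0.96 and 0.79. At the upper limit the last region inside had low scores, 0.33 in replicate 1 and 0.41 in replicate 2, and the first outside had 0.86 and 1.09.

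RPD3 regions were spread over the whole interior of the X but unevenly, and in both replicates they were densest near the telomere side. The density on the X was 55.5 per Mb for replicate 1 and 62.9 per Mb for replicate 2, averaging 59.2 ± 5.19 (SD, n = 2). The 3 background arms together had 54.0 and 59.3 per Mb, a mean of 56.6 ± 3.76 (SD, n = 2). Paired by library, the X had 1.55 more per Mb in replicate 1 and 3.58 more in replicate 2, a mean difference of 2.57 ± 1.43 (SD, n = 2; exact paired permutation p = 0.5, the smallest possible). The ratio of X to background was 1.03 in replicate 1 and 1.06 in replicate 2. The arms themselves differed more than that, from 47.2 and 51.2 per Mb on 2L to 59.1 and 67.0 per Mb on 3R in replicates 1 and 2. The share of sequence inside regions was 13.5% on the X in replicate 1, against 10.6% on 2L, 12.1% on 3L and 13.5% on 3R. In replicate 2 it was 16.2% on the X, against 12.4%, 13.6% and 15.8%.

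Within the X, the bin from 1 to 2 Mb had the most regions of the 19 full bins of 1 Mb in each replicate: replicate 1 had 111 there and replicate 2 had 128. The bin from 3 to 4 Mb had the fewest, with 33 and 36, so the fullest and the sparsest bin differed by 3.36 and 3.56 times. The bin between them had 73 and 79. The median bin had 56 regions in replicate 1 and 64 in replicate 2. Regions covered 27.9% of the bin from 1 to 2 Mb in replicate 1 and 34.7% in replicate 2, against 7.00% and 8.36% of the bin from 3 to 4 Mb. The first 2 Mb of the interior are 10.1% of its length and held 16.7% of the X regions of replicate 1 (184) and 16.5% of those of replicate 2 (207). By number of regions the combined list was more even, with 12.1% of its X regions there. Its fullest bin by number was that from 18 to 19 Mb, with 196 regions. By covered sequence its highest and lowest bins were those of the replicates, with 63.3% from 1 to 2 Mb and 21.9% from 3 to 4 Mb. Its regions covered 40.9% of the bin from 18 to 19 Mb. Their median width was 1528 bp there, against 2412.5 bp from 1 to 2 Mb. Between the replicates, counts in the 19 bins were correlated (Spearman 0.78, Pearson 0.92), across bins that share library and depth.

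**Figure D1:**
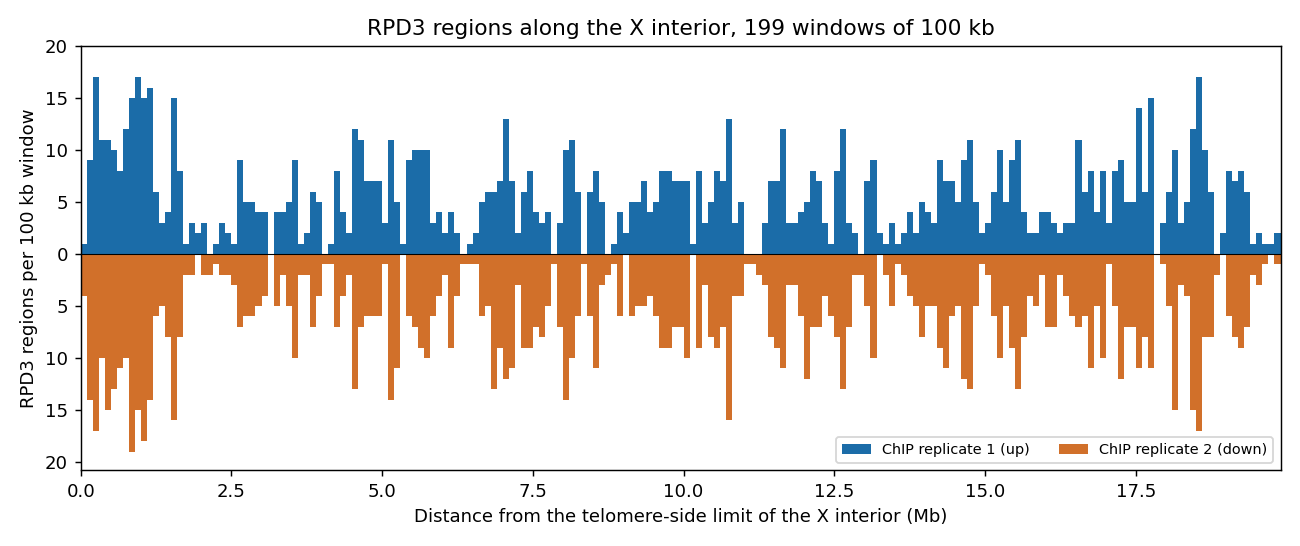
Number of region midpoints in each of the 199 windows of 100 kb along the X interior (y axis, replicate 1 upward and replicate 2 downward) against distance from its telomere-side limit in Mb (x axis). Both replicates are densest within 2 Mb of that limit, and a second cluster stands near 18.5 Mb.

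At finer scale, several hot spots were dense in both replicates. The median window of 100 kb had 5 regions in replicate 1 and 6 in replicate 2. The 6 windows with the highest count in the poorer replicate held between 15 and 17 regions in replicate 1 and between 15 and 19 in replicate 2. Of these, 5 lay on the telomere side, at 1.2 to 1.3, 1.8 to 1.9, 1.9 to 2.0, 2.0 to 2.1 and 2.5 to 2.6 Mb, and the other lay at 19.5 to 19.6 Mb. The window at 19.5 to 19.6 Mb had 17 regions in each replicate and was the most fully covered of the 6, with 64.1% of its sequence inside regions in replicate 1 and 66.4% in replicate 2. The window at 1.2 to 1.3 Mb also had 17 regions in each replicate, and was covered to 40.8% and 54.9%. Over the 199 windows, counts were correlated between the replicates (Spearman 0.88, Pearson 0.88). The variance of the counts was 2.80 times their mean in replicate 1 and 2.89 times in replicate 2. In the combined list it was 1.39 times. Of the 20 densest windows of each replicate, with ties broken by position, 13 were common to both.

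The replicates differed by 5 or more regions in 8 windows, and in each of them replicate 2 had more. The widest differences were at 7.8 to 7.9 Mb, where replicate 1 had 6 regions and replicate 2 had 13, and at 13.0 to 13.1 Mb, where they had 5 and 12. By number of regions, the combined list placed its densest window elsewhere, at 18.1 to 18.2 Mb. It had 27 regions there, where replicate 1 had 8 and replicate 2 had 5.

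Long stretches without RPD3 regions lay outside the hot spots. The longest with no region of either replicate ran from 11950593 to 12096864 and measured 146 kb. The next were from 20728016 to 20869045 (141 kb), from 4071215 to 4199634 (128 kb), from 12222927 to 12339778 (117 kb), from 18790703 to 18904944 (114 kb) and from 9256120 to 9365751 (110 kb). The stretch of 114 kb starts within the window from 18.7 to 18.8 Mb, which held 15 regions in replicate 1 and 11 in replicate 2. The stretches of 146 and 117 kb lie close together, and replicate 1 had no region at all for 389 kb across them, from 11950593 to 12340049. Replicate 2 had 4 regions with their midpoint in that stretch, with scores between 0.40 and 0.97. In turn, the longest empty stretch of replicate 2, from 20611950 to 20898358 (286 kb), held the midpoints of 3 regions of replicate 1.

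None of these stretches was empty in the combined list, which placed the midpoints of 8 to 15 regions in each of the 6. Its regions covered 7.59% of the longest stretch and 15.9% of that at 18.8 Mb, against 33.2% of the X interior as a whole. The longest stretch free of combined-list regions was 80.3 kb, from 3468728 to 3548993, within the sparsest bin. Only 2 of the 199 windows had no region in either replicate, at 4.1 to 4.2 Mb and at 18.8 to 18.9 Mb, and none was empty in the combined list.

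Whether the X had shorter extremes than the background arms depended on the list. In the union of the replicates its longest stretch was 146 kb, against 299 kb on 2L, 353 kb on 3L and 200 kb on 3R. Within replicate 1 it was 389 kb on the X, against 480 kb on 2L, 357 kb on 3L and 225 kb on 3R. Within replicate 2 it was 286 kb, against 299.66, 353 and 200 kb, and in the combined list 80.3 kb, against 88.1, 103 and 65.5 kb. The X was thus below each arm in the union alone. In the union, stretches of at least 50 kb numbered 3.52 per Mb on the X, against 3.66 on 2L, 2.90 on 3L and 2.13 on 3R. They made up 26.7% of the X interior, against 33.5%, 23.8% and 17.3% of 2L, 3L and 3R. Whether gaps in the assembled sequence lie in these stretches was not tested.

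**Figure D2:**
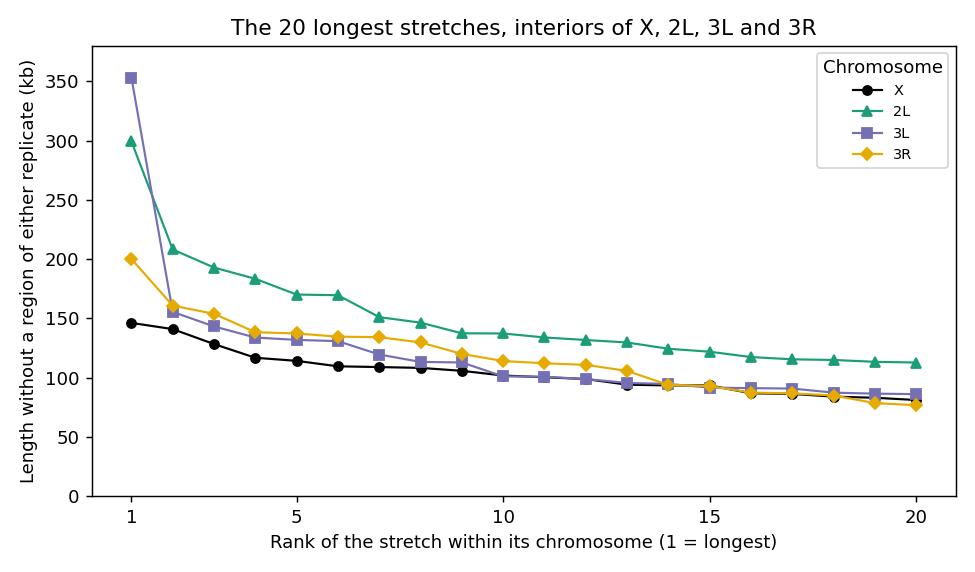
Length in kb (y axis) of the 20 longest stretches without a region of either replicate, ranked within each chromosome (x axis), for the interiors of X, 2L, 3L and 3R. The longest on the X is 146 kb, below the longest of each other arm, and from about rank 10 the X lies close to 3L.

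RPD3 regions on the X were slightly wider than on the arms, mainly at the upper end. The median width was 1979 bp on the X in replicate 1 and 1993 bp in replicate 2, a mean of 1986 ± 9.90 bp (SD, n = 2). On the background arms it was 1866.5 and 1929 bp, a mean of 1898 ± 44.2 bp (SD, n = 2). Paired by library, the X median was 112.5 bp wider in replicate 1 and 64 bp wider in replicate 2 (exact paired permutation p = 0.5, the smallest possible). The 90th percentile of width was 4023 bp on the X in replicate 1, against 3655 bp on the arms, and 4479 bp in replicate 2, against 3941 bp. Regions of at least 4 kb made up 10.3% of X regions in replicate 1, against 7.33% on 2L, 7.26% on 3L and 7.79% on 3R. In replicate 2 they made up 12.9% on the X, against 10.2%, 9.33% and 9.58%.

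Wider regions had higher scores, and X scores were the higher ones (medians of 0.96 and 0.94 on the X, against 0.77 to 0.78 and 0.76 to 0.77 on the 3 arms in replicates 1 and 2). At like scores X regions were the narrower ones, but a like score stands lower among X scores than among those of the arms. On the X the Spearman correlation of score and width was 0.49 over the 1105 regions of replicate 1 and 0.56 over the 1251 of replicate 2, as a description across regions. Among regions with scores from 0.9 to 1.0, the median width in replicate 1 was 1985 bp on the X (220 regions), against 2495 bp on the arms (465 regions). In replicate 2 it was 2057 bp on the X (213 regions), against 2652.5 bp (446 regions). This band holds the X median score, but on the arms it starts near the 75th percentile. That percentile was 0.90 to 0.91 on the 3 arms in replicate 1 and 0.89 to 0.91 in replicate 2. What part of the difference in width goes with this shift of scores was not tested. In all 5 score bands compared, from 0.7 to 1.5, X regions had a lower median width than the 3 arms pooled in each replicate. Against single arms there was 1 exception, the band from 1.2 to 1.5 in replicate 2, with 3517 bp on the X against 3323 bp on 2L.

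**Figure D3:**
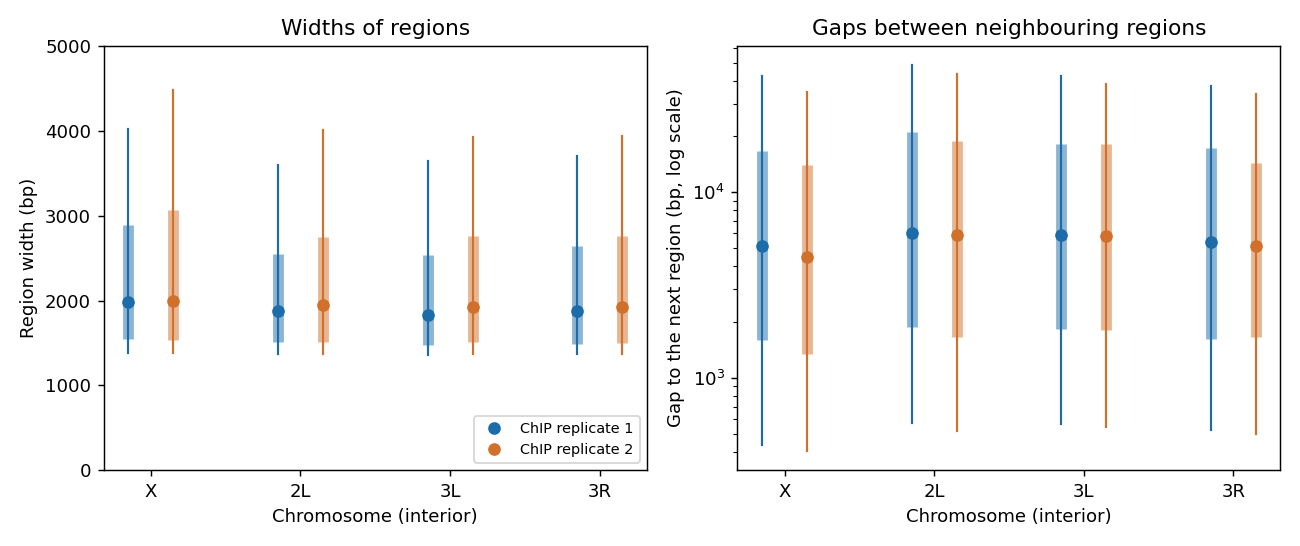
Widths of regions in bp (left) and gaps from the end of a region to the start of the next in bp on a log axis (right), for the interiors of X, 2L, 3L and 3R, with replicate 1 in blue and replicate 2 in orange. Points are medians, thick bars the 25th to 75th and thin lines the 10th to 90th percentiles over regions; X medians are 1979 and 1993 bp for width and 5126 and 4508.5 bp for gaps.

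Replicate 2 covered the widest X regions of replicate 1 almost in full, and replicate 1 covered those of replicate 2 mostly but less fully. The widest of replicate 1 ran from 18539943 to 18553404 (13.5 kb, score 1.46), and replicate 2 covered all but its first base with a single region of 14.8 kb, its own second widest, from 18539944 to 18554709 (score 1.37). The widest of replicate 2, from 1351024 to 1367654 (16.6 kb, score 1.35), was split into 3 regions in replicate 1 that covered 73.4% of it. Replicate 2 also listed 13.2 kb from 1963708 to 1976887, 12.2 kb from 11242155 to 11254381 and 11.6 kb from 8032969 to 8044542. Replicate 1 had several regions in each, which covered 70.0%, 86.4% and 79.6% of them in that order. The other wide regions of replicate 1 lay from 7822797 to 7833121 (10.3 kb), from 9048730 to 9058990 (10.3 kb), from 15625424 to 15634430 (9.01 kb) and from 11015271 to 11023664 (8.39 kb). Replicate 2 covered between 94.8% and 100% of each of these. Wide regions were not always strong: that at 9.05 Mb scored 1.06 and stood at percentile 69.2 of the X scores of its list, and that at 15.6 Mb scored 1.01 and stood at percentile 59.6.

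In both replicates, neighbouring regions on the X were closer than on the arms, which did not hold in the combined list. From a region to the next, the median gap of replicate 1 was 5126 bp and that of replicate 2 was 4508.5 bp, a mean of 4817 ± 437 bp (SD, n = 2). On the background arms it was 5727 and 5526 bp, a mean of 5627 ± 142 bp (SD, n = 2). The paired difference averaged -809 ± 295 bp (SD, n = 2; exact paired permutation p = 0.5, again the smallest possible). In the combined list the median gap was 2255 bp on the X, against 2169.5 bp on the arms. Gaps shorter than 1 kb made up 19.7% of gaps on the X in replicate 1, against 14.7% on 2L, 16.1% on 3L and 17.7% on 3R. In replicate 2 they made up 20.2% on the X, against 16.8%, 15.8% and 18.1%. Joining regions no more than 2 kb apart put 47.7% of X regions of replicate 1 and 52.8% of replicate 2 into chains. The arms had between 43.6% and 46.5% of their regions in chains in replicate 1, and between 45.8% and 46.0% in replicate 2. In replicate 2 a chain with the largest number of X regions, 9 over 35.0 kb from 1260105 to 1295100, lay in a telomere-side hot spot. In replicate 1 the largest number was 6, reached by several chains along the X. The first by position ran from 2512583 to 2531591, and others ran from 5210587 to 5225647 and from 6566544 to 6594295. In the combined list chains held 67.9% of X regions, against 63.6% on 2L, 69.3% on 3L and 73.3% on 3R, and the longest X chain was at the other hot spot, with 19 regions over 104 kb from 19505643 to 19609812.

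Both replicates marked the same X sites more often where scores were high. Counting any overlap of 1 bp or more, replicate 2 marked 866 of the 1105 X regions of replicate 1 as well, or 78.4%, while over the whole list of replicate 1 the share was 72.7%. In the other direction it was 828 of 1251, or 66.2%, and 64.6% over the whole list of replicate 2. Since wide regions meet by overlap more readily, the position of midpoints was also compared. The midpoint of an X region of replicate 1 fell inside a region of replicate 2 in 73.7% of cases, where replicate 2 covered 16.2% of the X interior. In the other direction 60.5% of midpoints fell inside, where replicate 1 covered 13.5%. These covered shares are averages over the interior, and the clustering of both lists in the same windows was not allowed for. Over 10 equal classes of score, the share of midpoints inside was 71.8% in the lowest and 94.6% in the highest class of replicate 1, and 51.2% and 84.9% in those of replicate 2. The smallest share was not in the lowest class: it was 62.2% in the second class of replicate 1 and 43.7% in the third class of replicate 2.

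**Figure D4:**
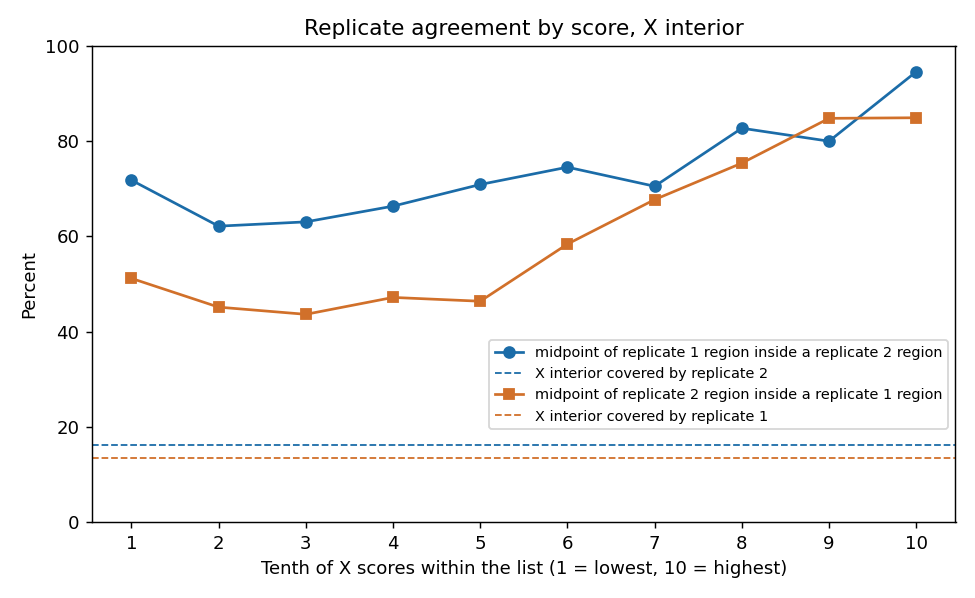
Share in percent of X regions whose midpoint lies inside a region of the other replicate (y axis), for 10 equal classes of score within each list (x axis), with replicate 1 as circles and replicate 2 as squares. Dashed lines give the share of the X interior that the other replicate covers, 16.2% and 13.5%, and every class lies above them. The lines are averages over the whole interior and do not allow for the clustering of both lists in the same windows.

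Strong regions, defined as the top 10% of X scores within a list, were mostly found again, though several of the very highest of replicate 2 were not. Of 111 strong X regions of replicate 1, with scores of at least 1.26, 107 were overlapped in replicate 2, or 96.4%, where the same class of the whole list gave 81.8%. Of 126 strong X regions of replicate 2, also from 1.26 upward, 111 were overlapped in replicate 1, or 88.1%, against 83.4% for the same class of the whole list. With the same definition within each arm, the shares in replicate 1 were 93.8% on 2L, 95.8% on 3L and 93.4% on 3R, and in replicate 2 94.3%, 95.3% and 97.1%. The X was thus above each arm in replicate 1 and below each arm in replicate 2. Strong in both replicates were 68 of the 111 (61.3%), against 64.9% on 2L, 62.5% on 3L and 67.5% on 3R. Counted from replicate 2 they were 65 of the 126 (51.6%), against 59.4%, 57.8% and 60.2%. Both counts rest on the same pair of libraries and were not tested. The median partner of a strong replicate 1 region stood at percentile 93.3 of replicate 2.

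Sites strong in both replicates were densest from 19 to 20 Mb. The 68 are counted as regions of replicate 1, and some neighbours met the same region of replicate 2. Those starting at 11242232 and 11249063, for example, both met the replicate 2 region from 11242155 to 11254381. Of the 68, 13 lay from 19 to 20 Mb, where they made up 18.3% of the regions of replicate 1, and 3 more lay beyond 20 Mb. The bins from 1 to 2, 6 to 7 and 10 to 11 Mb had 7 each, though the first of these had 111 regions in replicate 1 and the others 66 and 58. The bin from 3 to 4 Mb had none. The median distance between neighbouring replicate 1 regions of this kind was 78.6 kb, and 31 of 67 distances were under 50 kb. The short distances include those between regions that shared a partner in replicate 2. The longest interval without such a site was 1548 kb, from 4.01 to 5.56 Mb.

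The 15 combined-list regions with the highest ranks in both replicates began at 1.37, 1.89, 2.62, 6.18, 6.71, 8.29, 9.50, 11.2, 12.6, 19.37, 19.41, 19.52, 19.58, 19.67 and 20.3 Mb. The first in rank was that from 19413186 to 19418693. Replicate 1 placed its region there from 19413726 to 19417954 with a score of 1.85, and replicate 2 from 19413686 to 19418855 with a score of 1.90. Midpoints of the best regions of the replicates were 430.5 bp apart at this site. The second, at 8.29 Mb, was of another shape: a narrow region of 1391 bp with a score of 2.51 in replicate 1, the highest on the X, and of 1601 bp with a score of 1.82 in replicate 2, with midpoints 27 bp apart. At 6.71 Mb the scores were 1.68 and 1.71 and the midpoints lay 16 bp apart, within a combined region of 11936 bp that held 2 regions of replicate 1 and 3 of replicate 2. At 9.50 Mb the scores were 1.60 and 1.77, and at 20.26 Mb 1.58 and 1.64, where each replicate had a single region of 6713 and 6446 bp. On the telomere side, the region from 1368685 to 1375296 scored 1.57 in replicate 1 and 1.69 in replicate 2, and that from 1891376 to 1896143 scored 1.56 and 1.84.

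Over these 15 sites the best region of replicate 1 had a median width of 4337 bp, from 1391 to 6843 bp, and that of replicate 2 had 5039 bp, from 1601 to 12227 bp. All but the site at 8.29 Mb were wider than the median X region in both replicates. Midpoints were less than 500 bp apart at 11 of the 15, and the largest offset was 3394 bp at 11.2 Mb, where the combined region held 3 regions of replicate 1 and 2 of replicate 2. Of the 15, 6 lay beyond 19 Mb and 3 between 1 and 3 Mb. They were chosen for their rank, so their scores are a description.

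Strong regions found in a single replicate were narrow. The 15 strong X regions of replicate 2 without a partner had a median width of 1462 bp, against 3752 bp for the 111 with a partner. The first of them, from 20169296 to 20171060, had the highest score of all X regions of replicate 2, 2.67, and the nearest region of replicate 1 was 35.7 kb away. The combined list did hold a region there, with a score of 1.27. Next came 10500677 to 10502190 (score 1.81), with a neighbour of the same kind from 10498829 to 10500267 (score 1.46), then 17791224 to 17792622 (score 1.80) and 14927534 to 14928841 (score 1.72). These 4 were from 1308 to 1514 bp wide. Those scoring 1.81, 1.80 and 1.72 stood at positions 5, 6 and 8 in the order of X scores of replicate 2. Its very highest scores were thus in part without a partner. Replicate 1 had 4 strong regions without a partner, with a median width of 1671.5 bp against 3263 bp for the 107 with one. Its highest was from 16460373 to 16462213, with a score of 1.45, at position 35 in the order of its X scores. The others were from 7130835 to 7133245 (score 1.33), from 9195769 to 9197270 (1.27) and from 8178801 to 8180148 (1.26), and just below the limit came 14217533 to 14219086 (1.26). Each of these regions of either replicate overlapped 1 region of the combined list.

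Split by width, the strong regions of replicate 2 under 2 kb were overlapped in 5 of 16 cases (31.3%), those from 2 to 3 kb in 24 of 27 (88.9%), those from 3 to 4 kb in 34 of 35 (97.1%) and those of 4 kb or more in 48 of 48. In replicate 1 the counts were 14 of 17, 27 of 28, 34 of 34 and 32 of 32. On the background arms strong regions under 2 kb were overlapped in 8 of 20 cases in replicate 2 and in 19 of 32 in replicate 1. Wide regions are also met more easily by any region of the other list, and that part was not tested.

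**Figure D5:**
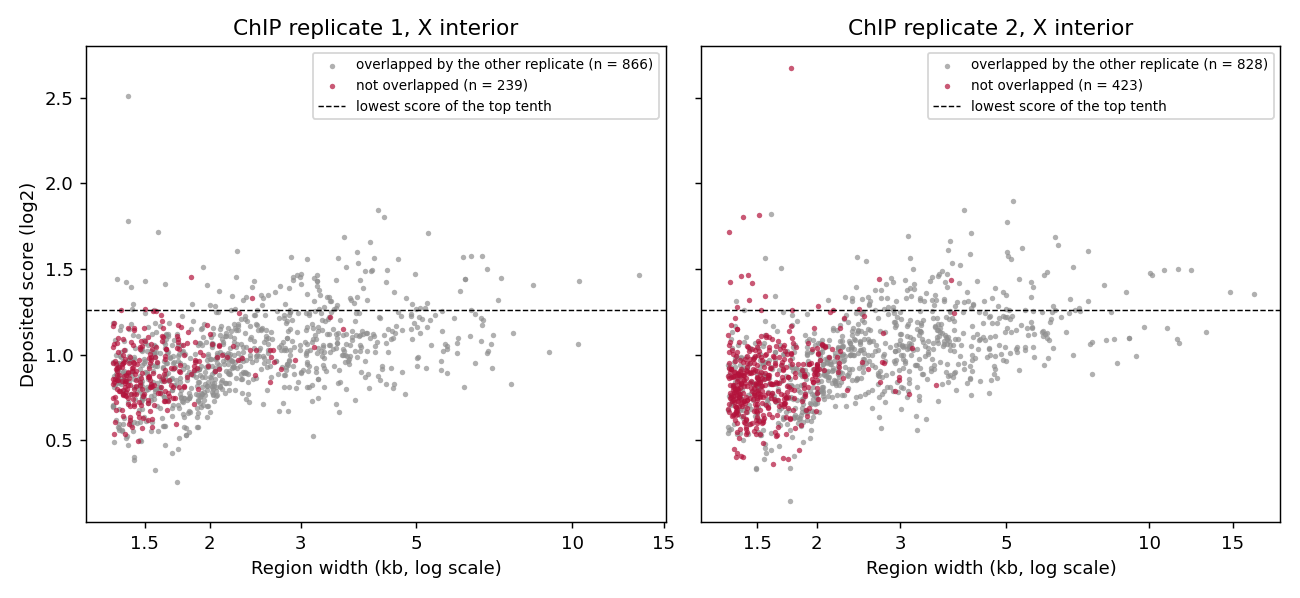
Deposited log2 score (y axis) against region width in kb on a log axis (x axis) for the X regions of replicate 1 (left) and replicate 2 (right), in grey where the other replicate overlaps them and in red where it does not. Above the dashed line, the lowest score of the top 10%, red points stand mostly at widths under 2 kb, and no region of 4 kb or more is red.

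Where both replicates marked a site, the centres of their regions were farther apart on the X than on the arms. The median distance between the midpoints of partners was 263.5 bp on the X over 866 regions of replicate 1, against 181 bp on the arms over 2700. Counted from replicate 2 it was 238.5 bp over 828 regions, against 171 bp over 2623. Each arm taken alone had a lower value than the X in both directions, from 161.5 to 195.5 bp and from 152.5 to 189 bp. The offset was larger on the X in each of the 4 width classes counted from each replicate. Among regions under 2 kb, for example, it was 234.5 bp on the X, against 159.5 bp on the arms, from replicate 1, and 186.5 bp, against 144.5 bp, from replicate 2. Partners had in common a median of 73.8% of their joint length on the X, against 79.2% on the arms, from replicate 1, and 75.6%, against 80.1%, from replicate 2. Both directions use the same pair of libraries, so this is a single comparison with no replicate check, and it was not tested.

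The combined list held far more X regions than either replicate, and most of its regions had no partner. Of its 2794 X regions, 720 (25.8%) were overlapped by both replicates and 1484 (53.1%) by neither. Over the whole combined list these shares were 23.1% and 55.2%. Another 209 had a region of replicate 1 alone and 381 of replicate 2 alone. The median width was 3829.5 bp for regions found in both, against 1262.5 bp for those found in neither, and their median scores were 0.82 and 0.58. Those found in both were wider on the X than on 2L, 3L and 3R, where their medians were 3404.5, 3388 and 3412.5 bp. Of the 720, 542 (75.3%) held a single region of each replicate, and 128 held unequal numbers.

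In the top 10% of combined scores on the X, 233 of 280 regions (83.2%) were overlapped by both replicates and 35 (12.5%) by neither. Many of the very highest scores of this list nevertheless stood apart from the replicates. Its first 5 by score were overlapped by neither, and of its 20 highest 12 were overlapped by neither and 8 by both. Those 12 were at most 1596 bp wide, and the 8 were at least 4250 bp wide. The first 5 lay from 19837025 to 19838029 (score 2.87), 6230850 to 6231850 (2.78), 13893940 to 13895077 (2.46), 5421538 to 5422676 (2.33) and 11432777 to 11433922 (2.27), and were 1001 to 1146 bp wide where no region of this list was under 1001 bp. The nearest replicate region was 2309 bp away or more. Relative to the most frequent score of the list, their linear ratios were fractions of small whole numbers, 16/3, 5/1, 4/1, 11/3 and 7/2. Among X regions in the top 10% of combined scores the median denominator in lowest terms was 30 for the 35 found in neither replicate, and 467 for the 233 found in both (over the 95.7% of them for which a ratio with a denominator up to 2000 was found). Lowest terms depend on the value taken as 1 and are not read numbers, so the part of low read numbers in these scores was not tested.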

How the data were processed

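The series had 2 ChIP and 2 input libraries, grouped and numbered by their titles. Reads were aligned with Bowtie 0.12.7, per the submitters' processing notes. Per the file headers the build is FlyBase release 5, and positions are counted from 1. The sources used here do not give the region caller, its thresholds or the origin of the combined list. Scores are log2 values deposited by the authors. That scale was inferred from classes of X regions in each list, which for the replicates were the strong regions. In these classes 95.7% to 100% of linear scores were ratios of whole numbers (tolerance 1e-09) times a constant. Inputs had no list of their own, and 0 columns of other samples were met.

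Regions were taken by midpoint. Interiors of 2L, 3L and 3R leave out 1 Mb at the telomere side and 1.5 Mb at the centromere side. Counts, widths, gaps, overlaps and stretches were computed per list, with no test over regions, since regions are not replicates. Scores were ranked within a list. The functions were checked on simulated lists. Named regions followed a written rule: the 15 best by the lower of their replicate ranks, the 5 strongest without a partner and the 5 widest per replicate, the 6 densest windows, the 6 longest stretches and the 5 strongest of the combined list in neither replicate. The regions and rules were chosen with earlier results of these data known. Score bands, width classes and lowest terms were chosen after the lists had been seen. Depth is unknown. No genes are named, because the gene table at hand is of release 6. Alternatives covered merging within 200 bp, regions scoring at or above their list's median, the combined list, the whole X, other limits for strong regions, the overlap required, other windows, and omission of each replicate or arm. Python 3.11.15, numpy 2.4.6, pandas 2.3.3, scipy 1.17.1 and matplotlib 3.10.9 were used.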

Additional observations from a re-analysis of the deposited data

How the results depend on the processing

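For ChIP against input, no paired analysis was possible because the inputs have no lists of their own. X and arm values were paired by library throughout. Besides 12 values that omit a replicate, 29 alternatives were run. Of these, 15 moved by less than the spread between replicates or, for the window correlation, by less than 0.05. For the longest stretch that spread was wide, an SD of 72866 bp between the single replicates. The 15 therefore include 80266 bp in the combined list and 213984 bp over the whole X, against 146272 bp in the union. Omitting a replicate from a mean of 2 cannot move it by more than their SD, so those values are given as ranges only. The X density ratio of 1.04 was 1.03 to 1.06 on a single replicate, 1.02 over whole chromosomes, 0.93 in the combined list, 0.99 without 2L and 1.12 without 3R, so its direction depended on the list and arms used. Keeping the better-scoring regions gave 1.84, by construction, since X scores are higher. That same choice gave a median width of 2233 bp, a median gap of 6300 bp and a longest stretch of 261160 bp. The combined list gave 1628 bp for width and 2255 bp for gaps. Merging regions within 200 bp gave 2019.5 bp and 5271 bp. Single replicates gave widths of 1979 to 1993 bp, gaps of 4508.5 to 5126 bp and longest stretches of 286409 to 389457 bp, against 146272 bp in their union, which by construction can only be shorter. The share of strong regions found again, 92.2% over both directions, was 88.1% to 96.4% in a single direction. Their midpoint offset of 285.5 bp was 236.5 to 334.5 bp in a single direction and 357.75 bp for the top 5%. The window correlation of 0.88 was 0.95 for covered sequence. Depth limits every list to an unknown extent.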
